A study of Homo sapiens with 84 samples.

Results

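Transcripts of the aryl hydrocarbon receptor (AHR), of its partner ARNT, of its repressor AHRR and of the cytochrome P450 genes CYP1A1 and CYP1B1 were followed through 84 libraries from lung cancer cells exposed to inhibitors of PARP7 or to vehicle. The 5 genes were taken as the rows of the deposited count table whose Ensembl identifiers carry these symbols in GENCODE release 29, and they are 5 of the 57964 genes in the table. AHR (ENSG00000106546.13) lies on chromosome 7 from 16916359 to 17346152 on the plus strand of GRCh38. ARNT (ENSG00000143437.20) lies on chromosome 1 from 150809705 to 150876768 on the minus strand. AHRR (ENSG00000063438.16) spans chromosome 5 from 304176 to 438291 on the plus strand. CYP1A1 (ENSG00000140465.13) spans chromosome 15 from 74719542 to 74725610 and CYP1B1 (ENSG00000138061.11) chromosome 2 from 38066973 to 38109902, both on the minus strand. All of them are protein-coding genes, and each value is the sum over the whole gene as the authors' counter gave it.

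AHR is a ligand-activated transcription factor of the bHLH-PAS family that waits in the cytoplasm with chaperones. When it binds a ligand such as a polycyclic aromatic hydrocarbon or a tryptophan metabolite, it enters the nucleus, pairs with ARNT and binds DNA at a short element with the core GCGTG. Its known targets in airway and lung epithelium include CYP1A1 and CYP1B1, which oxidise aromatic compounds, AHRR, which competes with AHR for ARNT, and TIPARP, the gene of PARP7, a mono-ADP-ribosyltransferase known to restrain AHR.

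The promoters of CYP1A1 and AHRR are printed because these genes rose together with CYP1B1 in the data, with the core in capitals (searched as GCGTG on both strands, so also as CACGC). Each sequence runs 5′ to 3′ on the gene's own strand, from 250 bases before to 50 bases after a transcript start in RefSeq, on GRCh38.p14. AHRR has entries for 2 starts.
CYP1A1, chr15:74725479-74725778, minus strand: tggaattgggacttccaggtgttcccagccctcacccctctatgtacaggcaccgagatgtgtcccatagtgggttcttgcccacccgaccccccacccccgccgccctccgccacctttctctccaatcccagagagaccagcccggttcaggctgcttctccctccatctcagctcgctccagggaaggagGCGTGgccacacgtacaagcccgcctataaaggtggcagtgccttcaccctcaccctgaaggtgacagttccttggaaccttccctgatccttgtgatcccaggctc
AHRR first start, chr5:321464-321763, plus strand: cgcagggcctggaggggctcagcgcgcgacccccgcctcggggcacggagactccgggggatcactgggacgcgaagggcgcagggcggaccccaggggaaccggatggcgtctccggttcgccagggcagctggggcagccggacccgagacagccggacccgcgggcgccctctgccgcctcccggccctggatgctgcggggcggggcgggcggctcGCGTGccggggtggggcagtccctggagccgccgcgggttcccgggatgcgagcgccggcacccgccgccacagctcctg
AHRR second start, chr5:322360-322659, plus strand: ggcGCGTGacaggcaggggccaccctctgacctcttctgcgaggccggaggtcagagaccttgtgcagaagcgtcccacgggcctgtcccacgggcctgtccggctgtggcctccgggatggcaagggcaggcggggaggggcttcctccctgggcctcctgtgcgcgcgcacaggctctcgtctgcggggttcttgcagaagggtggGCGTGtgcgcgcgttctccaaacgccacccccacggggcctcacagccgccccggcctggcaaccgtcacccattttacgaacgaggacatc
The core begins 57 bases before the start of CYP1A1, 30 bases before the first AHRR start, and 247 and 42 bases before the second. The AHR promoter holds 1 core, 38 bases after its start, and the ARNT promoter holds 0. Of 35116 RefSeq promoters of the same length, 36.5% hold at least 1 core and 12.7% at least 2. A promoter of CYP1B1 is not used here.

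The cells were NCI-H1373 and NCI-H647, established lines from non-small cell lung cancer, plated in 6-well dishes. DMSO was the vehicle. The inhibitors were RBN-2397 (10 nM, 30 nM and 300 nM) and RBN012337 (3 nM, 10 nM and 100 nM), given for 6 h or for 24 h. That makes 28 groups of 3 libraries, numbered 1 to 3 in the titles. The sample labels spell the first compound RBN012397 and the design text RBN-2397, with the same doses. Nothing in the labels ties a number to a culture, plate or day, so each p-value measures the spread between libraries, which may in part be technical.

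Libraries were sequenced from the 3′ ends of transcripts and held 630664 to 6938481 counts each, with 13606 to 22481 genes detected. In NCI-H1373, 21 libraries held 630664 to 2011416 counts (those numbered 3 at 6 h and those numbered 2 or 3 at 24 h) and the other 21 held 2481720 to 5994201, so every group of that line mixes both depths. Fits to 1 depth alone therefore leave 1 DMSO library and 1 library per treated group below the gap at 6 h and above it at 24 h, and such lone libraries are assumed to vary like the other groups. Levels are given as counts per 1000000 of the library's total (CPM). Both lines expressed the epithelial keratin KRT8, at 281 to 1111 CPM in NCI-H1373 and 162 to 601 CPM in NCI-H647. NCI-H647 held little of the epithelial adhesion molecules, with EPCAM at 6.57 CPM or less and CDH1 at 0 in 17 of 42 libraries. The T-cell gene CD3E was at 0 in all 84 libraries, and the lung lineage factor NKX2-1 was at 0 in 23 of 42 NCI-H647 libraries and in 0 of 42 NCI-H1373 libraries.

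Some libraries stood apart in the members. Replicate 1 of RBN-2397 at 300 nM in NCI-H1373 at 6 h held CYP1B1 at 11.2 CPM, CYP1A1 at 0.42 CPM and AHRR at 4.43 CPM, the lowest of the 18 treated libraries for each, while AHR stood at 26.1 CPM. In NCI-H647 at 6 h, replicate 2 of the same treatment held CYP1B1 at 38.1 CPM, under all 3 DMSO libraries. In that line and time the 6 treated libraries numbered 1 held CYP1B1 at 112 to 167 CPM, against 170 CPM in the DMSO library with that number. These libraries were picked out for their values of the members, so calls gained by leaving them out follow from that choice and are given as descriptions.

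After 6 h of PARP7 inhibition in NCI-H1373, the AHR targets CYP1B1, CYP1A1 and AHRR rose, by about 19-fold, 29-fold and 4-fold over DMSO when both compounds and all doses were averaged. The CYP1A1 value rests on 4 counts in DMSO and has a wide interval. That gene passed the filter on low counts through its treated libraries, so its test is conditional on them. None of these calls held in every fit that left out 1 library, and all were lost with the 6 h libraries fitted alone. The receptor and its partner did not pass the test at that time. By 24 h in the same line CYP1B1 was still higher than in DMSO, by 3.7-fold, and AHR was higher by 1.5-fold. Neither call held in every fit that left out 1 library. The calls at both times held with other size factors and with a term for replicate number in the fit. NCI-H647 cells started from more CYP1B1 than NCI-H1373, and 0 of the 4 members tested there passed the threshold at either time. A gene is called higher or lower where the adjusted p of edgeR's quasi-likelihood test (Benjamini-Hochberg over all genes tested in the comparison) is under 0.05. Pooled values compare the mean of 6 treated groups (18 libraries) with the 3 DMSO libraries of the same line and time.

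**Figure D1:**
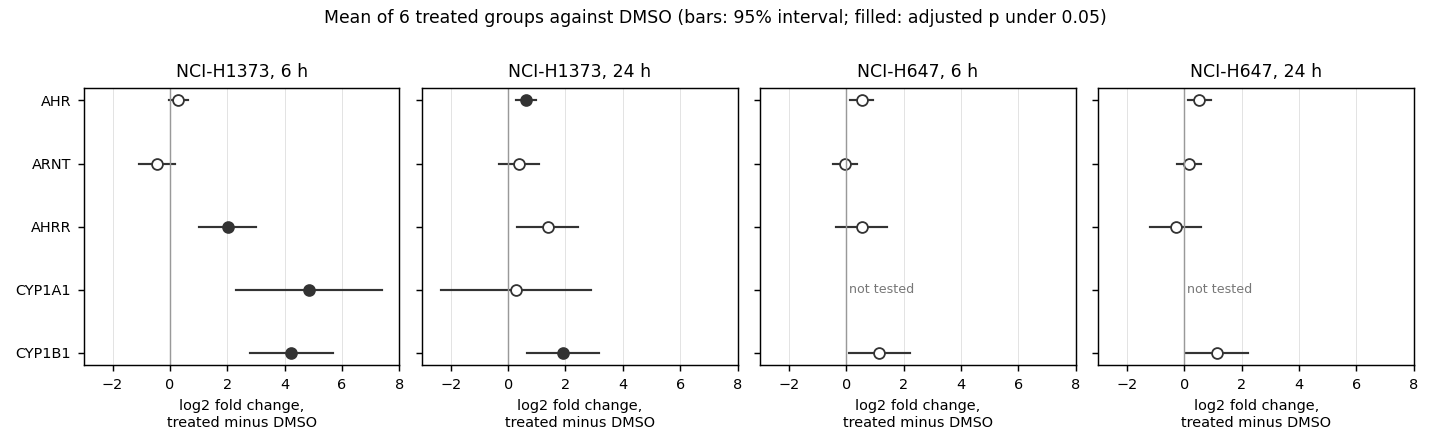
Pooled log2 fold changes of the members, treated minus DMSO (horizontal axis, log2), for each line and time, with 95% intervals; filled points have an edgeR adjusted p under 0.05. CYP1B1, CYP1A1 and AHRR are filled at 6 h in NCI-H1373, with CYP1B1 at 4.24, and CYP1B1 and AHR at 24 h; CYP1A1 was not tested in NCI-H647.

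These pooled comparisons called 3 of the 5 members tested in NCI-H1373 at 6 h, where 1.16% of 12832 genes were called, and 2 of 5 at 24 h, where 12.1% were called. In NCI-H647 they called 0 of 4 members at 6 h and 0 of 4 at 24 h, beside 0.0135% and 4.98% of 14790 genes. The members were chosen with earlier results of these data known, so these shares describe the set and do not test it. At an unadjusted p under 0.05 edgeR gave 1303 genes at 6 h and 2964 at 24 h in NCI-H647, with AHR and CYP1B1 among them at each time, and DESeq2 gave CYP1B1 adjusted p-values of 0.122 and 0.117. CYP1A1 passed the filter on low counts in NCI-H1373 through its treated libraries. In NCI-H647 it had too few counts for that filter, and it was tested there by permutation instead.

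AHR itself, the receptor, was detected in all 84 libraries. DMSO libraries of NCI-H1373 held 14.3, 13.7 and 21.0 CPM at 6 h, and the 18 treated libraries held 14.7 to 28.5 CPM with a median of 22.0. These groups overlapped, with 10 of 18 treated libraries above all 3 of DMSO. The log2 difference was 0.29 ± 0.16 (SE; edgeR adjusted p = 0.414). At 24 h DMSO held 18.6, 27.7 and 15.9 CPM and the treated libraries 24.5 to 45.0, with a median of 29.1. Here 12 of 18 treated libraries were above all of DMSO, and the second DMSO library lay inside the treated range. AHR rose by 0.62 ± 0.17 on the log2 scale (1.54-fold, 95% interval 1.21 to 1.96, edgeR adjusted p = 0.0149). Without DMSO replicate 1 the difference was 0.52, and the call was lost (edgeR adjusted p = 0.207). The shallow libraries alone gave 0.52 (edgeR adjusted p = 0.402), and the deeper ones, with 1 DMSO library, gave 0.76.

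The NCI-H647 cells gave AHR differences of a like size that did not pass the threshold. DMSO held 21.2, 6.67 and 17.7 CPM at 6 h, and the treated libraries 10.4 to 31.6 CPM with a median of 26.1. At 24 h DMSO held 24.6, 22.8 and 13.8 CPM, and the treated libraries 21.5 to 39.7 CPM with a median of 29.9. The groups overlapped at both times, although 15 and then 17 of 18 treated libraries were above all of DMSO. The log2 differences were 0.53 ± 0.20 (edgeR adjusted p = 0.373) and 0.52 ± 0.19 (edgeR adjusted p = 0.108). Without DMSO replicate 1 the 24 h difference was 0.77, and it passed (edgeR adjusted p = 0.0281).

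In NCI-H1373 the summed level of 5 epithelial genes (KRT8, KRT18, KRT19, EPCAM and CDH1) moved with treatment at 24 h, from 2147 to 2442 CPM in DMSO to 2444 to 7214 CPM in treated libraries. Its part in the 24 h results for AHR and CYP1B1 was not tested. The 3 lung lineage markers (NKX2-1, NAPSA and SFTPB) summed to 11.1 to 21.3 CPM in DMSO and 12.4 to 61.2 CPM in treated libraries there, and the 3 leukocyte markers to at most 1.23 and 4.07 CPM, with CD3E at 0. In bulk RNA a lower level in every cell and fewer cells that express a gene cannot be told apart.

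ARNT, the partner that AHR needs to bind DNA, did not pass in any of the 4 pooled comparisons. NCI-H1373 held 5.07, 7.66 and 7.81 CPM in DMSO at 6 h and 2.83 to 9.12 CPM (median 5.42) in treated libraries, a log2 difference of -0.45 ± 0.31 (edgeR adjusted p = 0.536). At 24 h it held 5.82, 5.55 and 11.1 CPM in DMSO and 3.75 to 12.7 CPM (median 7.95) in treated libraries, a difference of 0.38 ± 0.35 (edgeR adjusted p = 0.546). DMSO libraries of NCI-H647 held 10.8, 8.33 and 9.80 CPM at 6 h and 11, 10.1 and 12.7 CPM at 24 h. Treated libraries of that line ranged from 4.68 to 14.2 CPM and from 9.86 to 16.2 CPM, with differences of -0.04 ± 0.21 and 0.15 ± 0.21. Treated and DMSO libraries overlapped in all 4 sets.

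**Figure D2:**
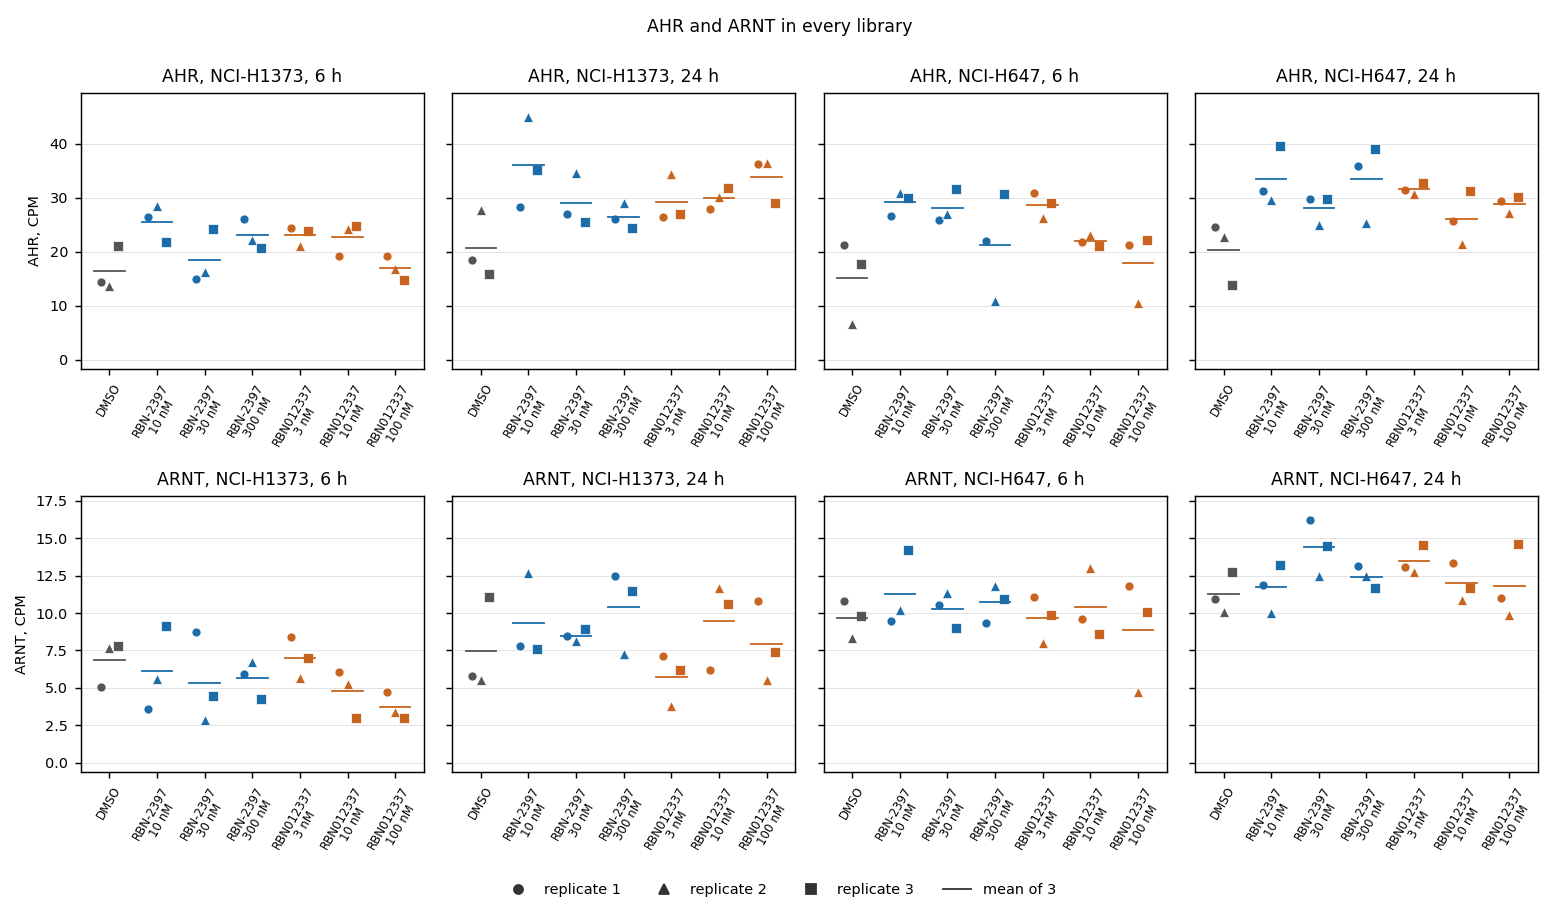
AHR (top) and ARNT (bottom) in CPM for every library, by line, time, compound and dose; each point is 1 library, shaped by replicate number, and lines are means of 3. AHR at 24 h in NCI-H1373 spans 15.9 to 27.7 CPM in DMSO and 24.5 to 45.0 CPM in treated libraries, while ARNT overlaps between treated and DMSO libraries in each panel.

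AHRR, which competes with AHR for ARNT, separated treated from untreated libraries in NCI-H1373 at 6 h. DMSO held 4.16, 2.42 and 3.00 CPM. RBN-2397 gave 17.1, 26.7 and 9.83 CPM at 10 nM, 28.6, 15.4 and 6.39 CPM at 30 nM and 4.43, 23.3 and 15.2 CPM at 300 nM. RBN012337 gave 11.5, 22.9 and 13.9 CPM at 3 nM, 14.4, 20.4 and 16.6 CPM at 10 nM and 6.46, 7.87 and 11.8 CPM at 100 nM. All 18 treated libraries were above all 3 of DMSO, and the lowest of them was the library that stood apart. AHRR rose by 2.01 ± 0.49 on the log2 scale (4.02-fold, 95% interval 2.02 to 8.01, edgeR adjusted p = 0.0330). The call was lost when any 1 of the 3 DMSO libraries was left out, with differences of 1.91 to 2.28 and edgeR adjusted p from 0.0607 to 0.419. It was also lost, at 2.03, with the libraries of that time fitted alone (edgeR adjusted p = 0.0937), and with the deeper libraries alone, at 2.03 (edgeR adjusted p = 0.149). The shallow ones, with 1 DMSO library, gave 1.92. Without the treated library that stood apart AHRR gave 2.09 ± 0.44.

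At 24 h in NCI-H1373, AHRR stood at 4.15, 5.55 and 0 CPM in DMSO and at 4.11 to 22.2 CPM (median 8.69) in treated libraries, with 16 of 18 above all of DMSO. The log2 difference was 1.37 ± 0.53 and did not pass (edgeR adjusted p = 0.0836). The DMSO library at 0 is one of the shallow ones. NCI-H647 held 4.04, 0 and 3.97 CPM in DMSO at 6 h and 1.75 to 7.07 CPM in treated libraries, and 4.74, 3.08 and 4.78 CPM in DMSO at 24 h against 0 to 6.49 CPM. Its log2 differences were 0.55 ± 0.44 at 6 h and -0.31 ± 0.44 at 24 h (edgeR adjusted p = 0.80 and 0.756). PDCD6, which overlaps AHRR on the same strand, had log2 differences between -0.20 and 0.11 in the 4 pooled comparisons, and 0 of 4 were called.

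**Figure D3:**
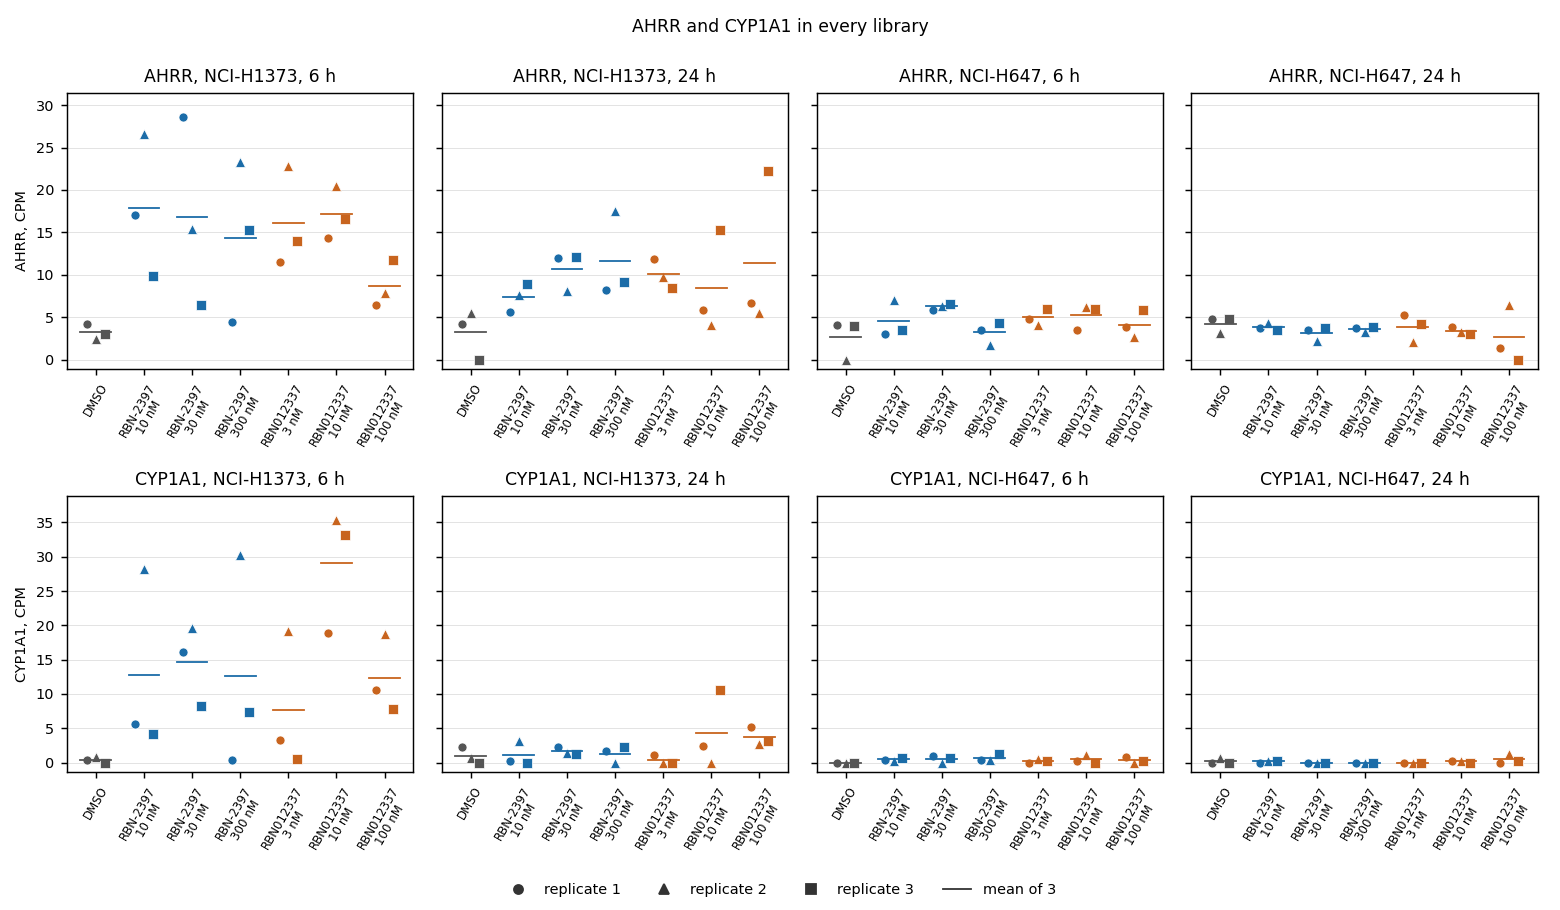
AHRR (top) and CYP1A1 (bottom) in CPM for every library, by line, time, compound and dose; each point is 1 library, shaped by replicate number, and lines are means of 3. At 6 h in NCI-H1373 all 18 treated libraries lie above the 3 DMSO libraries for AHRR and 16 of 18 do for CYP1A1, while both genes stay low in NCI-H647.

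CYP1A1, a monooxygenase that serves as the classic readout of AHR activity, gave few counts in untreated cells. In NCI-H1373 at 6 h the DMSO libraries held 0.36, 0.81 and 0 CPM, from 4 counts in all. RBN-2397 gave 5.68, 28.2 and 4.21 CPM at 10 nM, 16.2, 19.6 and 8.31 CPM at 30 nM and 0.42, 30.2 and 7.32 CPM at 300 nM. RBN012337 gave 3.32, 19.2 and 0.50 CPM at 3 nM, 18.8, 35.4 and 33.1 CPM at 10 nM and 10.6, 18.7 and 7.86 CPM at 100 nM. Of the 18 treated libraries 16 were above all of DMSO. The others, replicate 1 of RBN-2397 at 300 nM and replicate 3 of RBN012337 at 3 nM, held 2 counts and 1 count. Libraries numbered 2 were high at every dose, from 18.7 to 35.4 CPM.

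Summed over libraries, CYP1A1 had 1085 counts in treated cells, or 16.1 CPM, and 4 in DMSO, or 0.41 CPM with an exact 95% Poisson interval of 0.11 to 1.1 that covers counting error only. The gene passed the filter on low counts in this line through its treated libraries, as DMSO held only 9 counts at 24 h too. Its test is thus conditional on the libraries where it is high. It rose by 4.85 ± 1.24 on the log2 scale (95% interval 2.31 to 7.39, edgeR adjusted p = 0.0483). This call held in 5 of 21 fits that each left out 1 library, with differences of 4.5 to 5.48. Without the library that stood apart, picked for its low values, the difference was 4.96 (edgeR adjusted p = 0.0245), and the smaller p follows from that choice. The libraries of that time fitted alone gave 4.90, and the deeper ones alone 4.84, and neither passed (edgeR adjusted p = 0.168 and 0.295). The shallow ones, with 1 DMSO library, gave 6.13. By 24 h the DMSO libraries held 2.22, 0.62 and 0 CPM and the treated ones 0 to 10.6 CPM with a median of 1.50. Of the 18 treated libraries 8 were above all of DMSO and 5 held 0 counts, and the log2 difference was 0.29 ± 1.28 (edgeR adjusted p = 0.935).

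In NCI-H647, CYP1A1 stayed at or under 1.30 CPM in all 42 libraries. At 6 h the 3 DMSO libraries held 0 counts of 12514507, while 14 of 18 treated libraries held at least 1, with 32 counts in all (0.45 CPM, 95% interval 0.31 to 0.64). The 0 counts allow up to 0.24 CPM in DMSO by a floor of 3 counts over the group and up to 0.29 CPM by the exact 95% Poisson interval. An exact permutation test, two-sided, on the mean log2(CPM + 1) gave p = 0.0496. With 0 counts in all 3 DMSO libraries no arrangement gives a larger rise, so this is the smallest p a rise could reach. The permutation p of 0.000752 that 1 arrangement of these 18 and 3 libraries would give was out of reach for a rise. At 24 h, 6 of 18 treated libraries and 1 of 3 DMSO libraries held a count, and the same exact permutation test gave p = 0.553. Adjusted over these 2 permutation tests by Benjamini-Hochberg the p-values are 0.0992 and 0.553.

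CYP1B1, a member of the same family, oxidises aromatic compounds and steroids. Its group means ran from 13.9 ± 3.63 CPM (SD, n = 3) in NCI-H1373 DMSO at 6 h to 615 ± 113 CPM in the same line and time with RBN012337 at 10 nM.

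In NCI-H1373 at 6 h, DMSO held 12.3, 11.3 and 18 CPM of CYP1B1. RBN-2397 gave 155, 527 and 199 CPM at 10 nM, 289, 190 and 341 CPM at 30 nM and 11.2, 302 and 369 CPM at 300 nM. RBN012337 gave 152, 300 and 162 CPM at 3 nM, 494, 634 and 718 CPM at 10 nM and 101, 165 and 399 CPM at 100 nM. Of the 18 treated libraries 17 were above all of DMSO, at 101 CPM or more, and the exception was replicate 1 of RBN-2397 at 300 nM. CYP1B1 rose by 4.24 ± 0.70 on the log2 scale (18.9-fold, 95% interval 6.94 to 51.2, edgeR adjusted p = 0.00267). Without that library, picked for its low values, the rise was 4.34 ± 0.49 (edgeR adjusted p = 1.22e-05). The smaller error and p follow from that choice. The call was lost without DMSO replicate 2, where the rise was 4.21 (edgeR adjusted p = 0.0947), and with the libraries of that time fitted alone, where it was 4.26 (edgeR adjusted p = 0.0714). Those fits called 1 of 12787 and 27 of 13609 genes, beside 149 of 12832 in the main fit. The deeper libraries alone gave 4.22 (edgeR adjusted p = 0.201), and the shallow ones, with 1 DMSO library, gave 4.14.

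At 24 h in NCI-H1373, DMSO held 32.4, 27.1 and 6.34 CPM. RBN-2397 gave 38.1, 115 and 74.4 CPM at 10 nM, 63.9, 118 and 101 CPM at 30 nM and 40.1, 67.0 and 74.2 CPM at 300 nM. RBN012337 gave 44.3, 61.5 and 54.0 CPM at 3 nM, 86.2, 113 and 229 CPM at 10 nM and 145, 134 and 80.7 CPM at 100 nM. All 18 treated libraries were above all 3 of DMSO, and the lowest, 38.1 CPM, was close to the highest DMSO value. CYP1B1 rose by 1.90 ± 0.62 on the log2 scale (3.74-fold, 95% interval 1.56 to 8.95, edgeR adjusted p = 0.0407). Leaving out 1 library at a time gave 1.63 to 2.31, and the call held in 11 of 21 such fits. The shallow libraries alone gave 2.41 (edgeR adjusted p = 0.0285), and the deeper ones, with 1 DMSO library, gave 1.07.

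NCI-H647 expressed CYP1B1 before treatment. At 6 h DMSO held 170, 60.0 and 133 CPM. RBN-2397 gave 112, 307 and 320 CPM at 10 nM, 134, 429 and 435 CPM at 30 nM and 128, 38.1 and 472 CPM at 300 nM. RBN012337 gave 159, 259 and 313 CPM at 3 nM, 112, 527 and 631 CPM at 10 nM and 167, 193 and 542 CPM at 100 nM. The treated libraries numbered 1 lay inside the DMSO range, those numbered 3 were all above it, and 11 of 18 in total were above all of DMSO. The pooled log2 difference was 1.15 ± 0.52 (edgeR adjusted p = 0.509). With the 7 libraries numbered 1 left out together, a choice made after their values were seen, it was 1.68 ± 0.54 (edgeR adjusted p = 0.108, with 192 of 15129 genes called). Without replicate 2 of RBN-2397 at 300 nM it was 1.23 ± 0.47 (edgeR adjusted p = 0.396).

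At 24 h in NCI-H647, DMSO held 111, 70.8 and 102 CPM. RBN-2397 gave 121, 263 and 250 CPM at 10 nM, 162, 265 and 212 CPM at 30 nM and 132, 199 and 247 CPM at 300 nM. RBN012337 gave 129, 242 and 231 CPM at 3 nM, 203, 303 and 285 CPM at 10 nM and 148, 337 and 228 CPM at 100 nM. All 18 treated libraries were above all 3 of DMSO, and the lowest treated library of each dose was the one numbered 1. The pooled log2 difference of 1.14 ± 0.52 did not pass (2.20-fold, 95% interval 1.05 to 4.62, edgeR adjusted p = 0.220), while the libraries of that time fitted alone gave 1.14 and passed (edgeR adjusted p = 0.0240). The endothelial markers PECAM1, VWF and CDH5 summed to 1.18 to 2.47 CPM in DMSO and 3.64 to 8.41 CPM in treated libraries there, with VWF at 0 in 38 of 42 libraries of the line, and their part in the result was not tested.

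**Figure D4:**
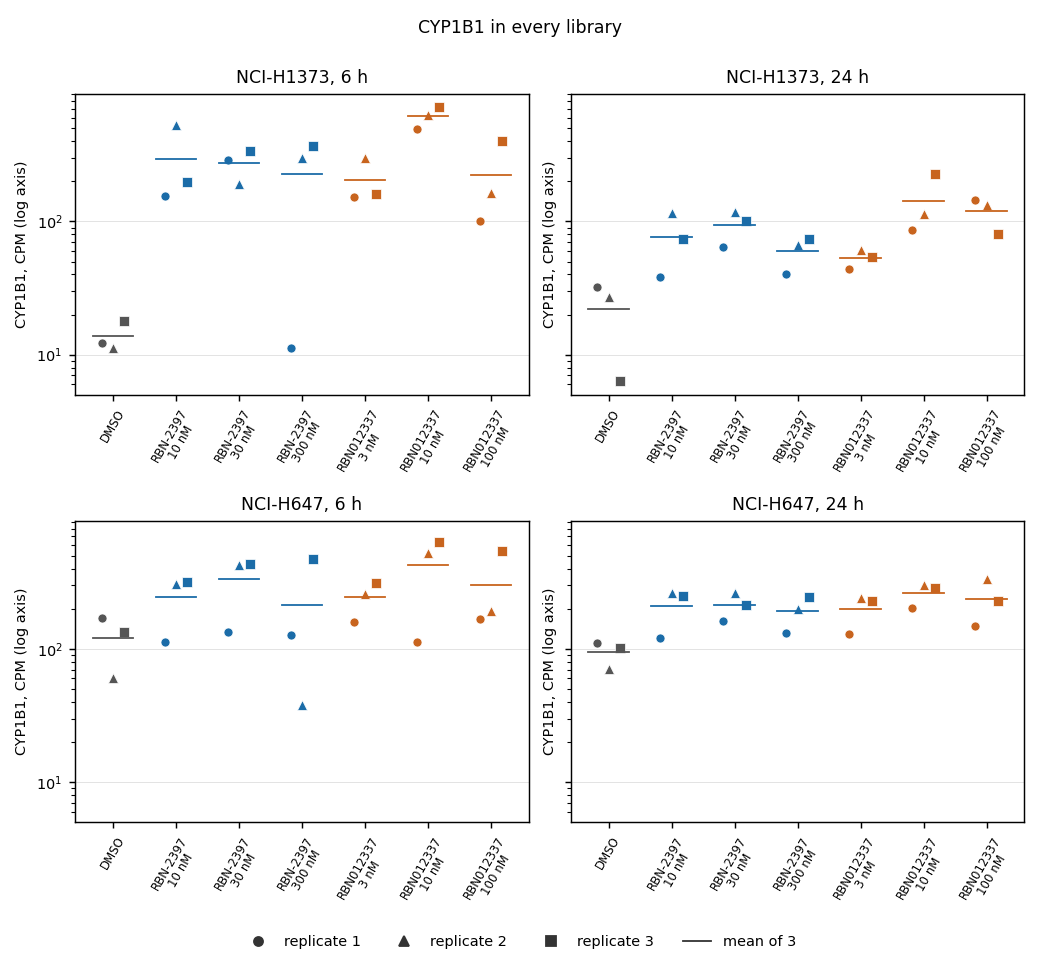
CYP1B1 in CPM on a log axis for every library, by line, time, compound and dose; each point is 1 library, shaped by replicate number, and lines are means of 3. At 6 h in NCI-H1373 DMSO lies between 11.3 and 18 CPM and 17 of 18 treated libraries lie at 101 CPM or more, with 1 at 11.2 CPM; in NCI-H647 the libraries numbered 1 lie lowest in most treated groups.

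Over all members, the treated libraries lay wholly above DMSO for 1 of 5 in NCI-H1373 at 6 h (AHRR), beside 0.312% of the genes tested, and for 1 of 5 at 24 h (CYP1B1), beside 1.13%. In NCI-H647 this held for 0 of 4 members at 6 h, beside 0.108% of genes, and for 1 of 4 at 24 h (CYP1B1), beside 0.73%. CYP1B1-AS1, an antisense gene that overlaps CYP1B1, had log2 differences of -0.23, 0.74, 0.04 and -0.07 in the 4 pooled comparisons, with 0 of 4 called. The handling of strand is not given in the sources used here, so reads of CYP1B1 and of overlapping genes on the other strand (CYP1B1-AS1 and RMDN2) cannot be told apart with certainty.

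The lines differed in CYP1B1 before any treatment. DMSO libraries of NCI-H1373 held 11.3 to 18 CPM at 6 h and those of NCI-H647 60.0 to 170 CPM, with no overlap. CYP1B1 was lower in NCI-H1373 by a log2 difference of -3.0 ± 0.72 (edgeR adjusted p = 0.000795), and it was the 1 of 5 members called where 33.4% of 16178 genes were called. At 24 h the ranges were 6.34 to 32.4 CPM and 70.8 to 111 CPM, and the difference was -2.02 ± 0.71 (edgeR adjusted p = 0.0246), again 1 of 5 members beside 29.0% of genes. This 24 h call held in 1 of 3 fits that each left out 1 replicate number, with values of -2.30 to -1.68. AHR differed between the lines by 0.18 ± 0.23 at 6 h and by 0.00 ± 0.24 at 24 h in DMSO (95% intervals -0.29 to 0.64 and -0.48 to 0.48), and neither passed. ARNT stood at -0.40 ± 0.33 and -0.75 ± 0.36, and AHRR at 0.30 ± 0.62 and -0.10 ± 0.66. TIPARP, also an AHR target, differed in the other direction, with 30.2 to 43.5 CPM in NCI-H1373 and 9.47 to 16.7 CPM in NCI-H647 at 24 h (1.55 ± 0.55, edgeR adjusted p = 0.0264). At 6 h its ranges overlapped, 21.6 to 55.2 CPM and 10.9 to 33.9 CPM, and the difference of 1.0 ± 0.52 did not pass (edgeR adjusted p = 0.140).

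Whether the response itself differed between lines was tested as the difference of the pooled log2 changes. For CYP1B1 at 6 h it was 3.07 ± 0.76 larger in NCI-H1373 (95% interval 1.54 to 4.60, unadjusted p = 0.000173 in edgeR), which did not pass after adjustment (edgeR adjusted p = 0.172). This comparison called 0 of 5 members and 0.0% of genes in edgeR, with 593 genes at an unadjusted p under 0.05, and DESeq2 called 15. DESeq2 called CYP1B1 there, with a difference of 3.05 (DESeq2 adjusted p = 0.0207). Leaving out 1 replicate number from every group gave 2.67, 3.12 and 3.46, and the first of these is without all libraries numbered 1. At 24 h the CYP1B1 difference was 0.73 ± 0.74 (edgeR adjusted p = 0.938), and 0 of 5 members were called beside 0.47% of genes. AHRR gave 1.47 ± 0.66 at 6 h and 1.67 ± 0.69 at 24 h (edgeR adjusted p = 1.0 and 0.404).

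Change with time was tested in the same way, as the pooled difference at 24 h minus that at 6 h. In NCI-H1373 CYP1B1 gave -2.33 ± 0.80 (95% interval -3.97 to -0.69, edgeR adjusted p = 0.174) and CYP1A1 -4.56 ± 1.98 (edgeR adjusted p = 0.295). The comparison called 0 of 5 members and 0.53% of genes. Without replicate 1 of RBN-2397 at 300 nM at 6 h, a library picked for its low values, CYP1B1 gave -2.43 ± 0.56 (edgeR adjusted p = 0.0465) and CYP1A1 -4.66 ± 1.72. Of 42 fits that each left out 1 library this was the only one to call CYP1B1, and they gave -2.59 to -1.93. AHR gave 0.33 ± 0.23, ARNT 0.83 ± 0.47 and AHRR -0.63 ± 0.72. In NCI-H647 the values were -0.01 ± 0.68 for CYP1B1, -0.01 ± 0.27 for AHR, 0.19 ± 0.29 for ARNT and -0.85 ± 0.62 for AHRR, with 0 of 4 members and 0.0% of genes called (893 at an unadjusted p under 0.05, and DESeq2 called 11).

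Single doses were then compared with DMSO, 6 groups of a line and time sharing the same 3 DMSO libraries. In NCI-H1373 at 6 h CYP1B1 was the only member called, at 5 of 6 doses. Its log2 rise with RBN-2397 was 4.23 ± 0.76 at 10 nM (1 of 5 members, beside 0.312% of genes), 4.25 ± 0.76 at 30 nM (beside 0.0234%) and 3.91 ± 0.75 at 300 nM (beside 1.61%). With RBN012337 it was 3.74 ± 0.75 at 3 nM (1 of 5 members, beside 0.468% of genes), 5.38 ± 0.80 at 10 nM (beside 0.195%) and 3.91 ± 0.76 at 100 nM, where it did not pass (edgeR adjusted p = 0.161, 0 of 5 members and 0.0% of genes called, 329 genes at an unadjusted p under 0.05, while DESeq2 called 2). In fits that each left out 1 library, the CYP1B1 call held in 6 of 6 at RBN012337 10 nM, in 4 of 6 at RBN-2397 10 nM and 300 nM, in 3 of 6 at RBN012337 3 nM and in 1 of 6 at RBN-2397 30 nM. AHRR stood between 1.22 and 2.32 and CYP1A1 between 4.06 and 5.87 over the 6 doses, and neither passed at any dose (edgeR adjusted p of 0.0537 or more). For RBN-2397 at 300 nM without the library that stood apart, a choice made after its values were seen, the estimates were 4.48 for CYP1B1, 2.40 for AHRR and 5.30 for CYP1A1.

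At 24 h in NCI-H1373, CYP1B1 passed at 10 nM of RBN012337, with a log2 rise of 2.65 ± 0.73 (edgeR adjusted p = 0.0444, 1 of 5 members beside 2.68% of genes). That call was lost in all 6 fits that each left out 1 library, with values of 2.17 to 3.07. AHR passed at 10 nM of RBN-2397, with a rise of 0.84 ± 0.21 (edgeR adjusted p = 0.0148, 1 of 5 members beside 7.33% of genes), which held in 4 of 6 such fits. No member was called at the other doses, beside 2.16% of genes at RBN-2397 30 nM, 11.9% at RBN-2397 300 nM, 8.5% at RBN012337 3 nM and 0.195% at RBN012337 100 nM. The estimates for AHR were between 0.45 and 0.84 and those for CYP1B1 between 1.25 and 2.65 over the 6 doses.

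In NCI-H647 0 of 4 members were called at any dose or time. At 6 h the share of all genes called was 0.00676% with RBN-2397 at 10 nM and at 300 nM, and 0.0% with RBN-2397 at 30 nM and with RBN012337 at 3 nM, 10 nM and 100 nM (636, 770, 472 and 364 genes at an unadjusted p under 0.05, while DESeq2 called 1, 4, 6 and 0). At 24 h it was 1.8%, 0.94% and 3.38% with RBN-2397 at 10 nM, 30 nM and 300 nM, and 0.676%, 0.169% and 0.101% with RBN012337 at 3 nM, 10 nM and 100 nM. CYP1B1 estimates lay between 0.76 and 1.71 at 6 h and between 0.97 and 1.42 at 24 h. The lowest of them, 0.76 with RBN-2397 at 300 nM and 6 h, became -0.54 without replicate 3 and 1.22 without replicate 2, which stood apart.

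RBN-2397 and RBN012337 share a dose only at 10 nM, which gives 4 pairs, 1 for each line and time. At that dose and 6 h in NCI-H1373, CYP1B1 stood at 294 ± 203 CPM (SD, n = 3) with RBN-2397 and 615 ± 113 CPM with RBN012337, and the ranges overlapped. The log2 difference, RBN-2397 minus RBN012337, was -1.15 with a 95% interval of -2.48 to 0.18. CYP1A1 gave -1.18 (-2.94 to 0.57) and AHRR 0.04 (-0.95 to 1.02). In the other 3 pairs CYP1B1 gave -0.95 (-2.32 to 0.42) in NCI-H1373 at 24 h, -0.79 (-2.05 to 0.48) in NCI-H647 at 6 h and -0.35 (-1.61 to 0.91) in NCI-H647 at 24 h. AHR lay between 0.13 and 0.38 in the 4 pairs. The edgeR adjusted p over all genes of a pair was 1.0 for every member tested, and a p that misses the threshold does not show that the compounds act alike. Called in edgeR were 0 of 5 members in each NCI-H1373 pair and 0 of 4 in each NCI-H647 pair, beside 0.0% of genes in each of the 4 pairs. An unadjusted p under 0.05 was seen for 153 and 250 genes in NCI-H1373 and 362 and 456 in NCI-H647 at 6 h and 24 h, and DESeq2 called 0, 2, 2 and 2.

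**Figure D5:**
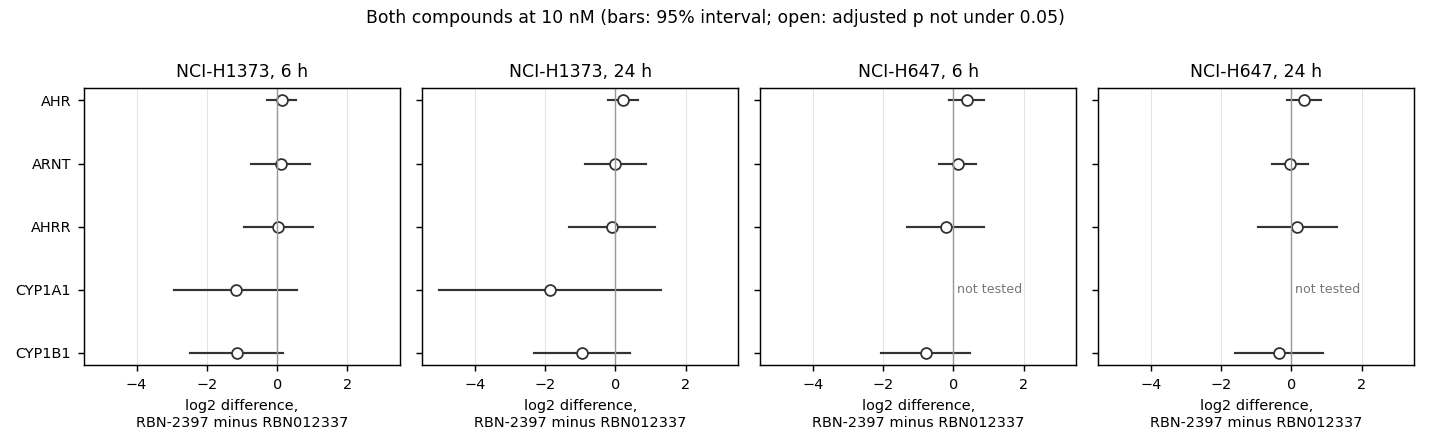
Difference between the compounds at 10 nM (horizontal axis, log2 of RBN-2397 minus RBN012337) for each member, line and time, with 95% intervals; open points have an edgeR adjusted p of 0.05 or more. CYP1B1 lies left of 0 in the 4 panels, from -1.15 to -0.35, and each of its intervals includes 0.

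Within a compound, the highest dose was set against the lowest. RBN-2397 at 300 nM minus 10 nM gave CYP1B1 differences of -0.32 and -0.28 in NCI-H1373 and -0.16 and -0.10 in NCI-H647 at 6 h and 24 h, with 0 members and 0.0% of genes called in each of the 4 comparisons (112, 213, 350 and 163 genes at an unadjusted p under 0.05, while DESeq2 called 0, 0, 2 and 1). Without the library that stood apart, the NCI-H1373 6 h difference was 0.24 ± 0.50. RBN012337 at 100 nM minus 3 nM gave 0.16 and 1.09 in NCI-H1373 and 0.34 and 0.20 in NCI-H647. Leaving out 1 library turned the sign of 7 of these 8 differences, all but the 1.09 (0.93 to 1.27), and each 95% interval included 0. Of the comparisons of RBN012337 doses only that of NCI-H1373 at 24 h called any gene, 0.125% of those tested and 0 of 5 members, while the other 3 called 0.0% (1172, 235 and 490 at an unadjusted p under 0.05 in NCI-H1373 at 6 h and NCI-H647 at 6 h and 24 h, while DESeq2 called 23, 3 and 3). The interval for CYP1B1 in that comparison ran from -0.28 to 2.47.

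Ordered by their means, the 28 groups formed a gradient in which neighbours mostly overlapped. For AHR and AHRR 0 of the 27 neighbouring pairs differed by more than the larger of their SDs. AHR was lowest in NCI-H647 DMSO at 6 h (15.2 ± 7.59 CPM) and highest in NCI-H1373 at 24 h with RBN-2397 at 10 nM (36.1 ± 8.42 CPM), and the DMSO groups ranked 22, 23, 27 and 28 of 28. AHRR was highest in NCI-H1373 at 6 h with RBN-2397 at 10 nM (17.8 ± 8.44 CPM). For CYP1B1 there was 1 neighbouring pair without overlap, NCI-H1373 at 24 h with RBN012337 at 3 nM (53.3 CPM) above NCI-H1373 DMSO at 24 h (22.0 CPM), so the NCI-H1373 DMSO groups of both times stood at the bottom of the order, ranks 27 and 28. CYP1A1 had its 6 highest means in the 6 treated NCI-H1373 groups at 6 h, from 7.67 to 29.1 CPM.

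The members moved together in part. Over the 14 group means of log2 CPM in NCI-H1373, CYP1B1 had a Pearson r of 0.89 with CYP1A1, 0.86 with AHRR, 0.96 with TIPARP and 0.08 with AHR. In NCI-H647 the same r was 0.39 with AHRR, 0.60 with TIPARP and 0.35 with AHR. These are descriptions over groups that share libraries, depth and DMSO controls. Among genes that passed the filter in both lines, those with a pattern most like CYP1B1 were the stress response gene IER3 (r of 0.84 in NCI-H1373 and 0.81 in NCI-H647), the non-coding LINC02029 (0.87 and 0.79) and the nucleoporin gene NUP50 (0.76 and 0.79), of 12239 genes compared. For AHR they were BCL3 (0.87 and 0.88), TSKU (0.86 and 0.87) and FAM215B (0.84 and 0.90), and for ARNT FIGNL2, SP110 and PARP9 (0.74 to 0.76). For AHRR they were UBE2E1, REXO1 and BYSL (0.70 to 0.79). For CYP1A1, compared in NCI-H1373 alone, they were MAPKAPK5 (0.90), ISG20L2 (0.89) and CYP1B1 (0.89).

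Other genes of the pathway were read from 4 lists in the pooled comparisons, where 1.16% and 12.1% of all genes were called in NCI-H1373 and 0.0135% and 4.98% in NCI-H647 at 6 h and 24 h. These lists too were chosen with earlier results of these data known. Of 14 chaperones and coactivators of AHR, all tested, 0 rose and 1 fell, the histone acetyltransferase gene CREBBP in NCI-H1373 at 24 h (-0.77 ± 0.24, edgeR adjusted p = 0.0288), a share no larger than that of all genes. The list medians were -0.20 and -0.13 in NCI-H1373 and -0.21 and -0.20 in NCI-H647 at 6 h and 24 h, where the medians of all genes lay between -0.02 and 0.01. Of 12 bHLH-PAS relatives, 8 were tested in NCI-H1373 and 9 in NCI-H647. The hypoxia factor gene HIF1A rose in NCI-H1373 at 24 h (0.79 ± 0.23), 1 of 8 tested, a share near the 12.1% of all genes. NPAS2, a clock factor gene (0.92 ± 0.21), and EPAS1, which encodes HIF-2 alpha (0.68 ± 0.16), rose in NCI-H647 at 24 h, 2 of 9 beside 4.98%. The other comparisons of that list called 0 genes, and 0 fell. Its medians were 0.20 and 0.20 in NCI-H1373 and 0.40 and 0.40 in NCI-H647.

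Of 15 further AHR targets, 11 were tested in NCI-H1373 and 13 in NCI-H647. In NCI-H1373 at 6 h 2 rose and 0 fell, STC2, a secreted glycoprotein gene (1.73 ± 0.38), and TIPARP (1.18 ± 0.27). At 24 h 4 rose and 1 fell. The aldehyde dehydrogenase genes ALDH1A3 (3.99 ± 0.68) and ALDH3A1 (3.36 ± 0.77), the growth factor gene EREG (2.21 ± 0.62) and TIPARP (1.04 ± 0.28) were higher. The antioxidant regulator NFE2L2 was lower (-0.65 ± 0.20). ALDH3A1 held 0 to 1.23 CPM in DMSO there and 0 to 16.8 CPM in treated libraries, so the ranges overlapped. Like CYP1A1, it passed the filter on low counts through treated libraries, and its test is conditional on them. NCI-H647 had 0 called at 6 h, and at 24 h 1 rose, the cytochrome P450 gene CYP2S1 (1.43 ± 0.22), and 2 fell, NFE2L2 (-0.68 ± 0.18) and the quinone reductase gene NQO1 (-0.55 ± 0.17). STC2, EREG, NFE2L2 and NQO1 are named after their values were seen, to complete these counts. The list medians were 0.29 and 0.60 in NCI-H1373 and 0.21 and 0.27 in NCI-H647. CYP1A2, a neighbour of CYP1A1 on chromosome 15, held at most 4.93 CPM in any library and was too low to test in either line alone.

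Genes of tryptophan and kynurenine metabolism and the transporter gene SLC7A11 formed the last list, with 5 of 11 tested in NCI-H1373 and 8 of 11 in NCI-H647. A change in these transcripts does not show more or less ligand for AHR. At 6 h 0 were called in either line. At 24 h the kynureninase gene KYNU rose (1.52 ± 0.40) and the cystine transporter gene SLC7A11 fell (-0.51 ± 0.17) in NCI-H1373. IDO1, which starts the kynurenine pathway, rose in NCI-H647 (3.88 ± 0.88, from 0 to 0.89 CPM in DMSO to 0.26 to 28 CPM in treated libraries). IDO1 passed the filter on low counts through treated libraries, so its test is conditional on them. The list medians were 0.06 and 0.54 in NCI-H1373 and -0.03 and 0.21 in NCI-H647.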

How the data were processed

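The 84 libraries were 3′ digital gene expression libraries, per the labels. The deposited table holds estimated counts per gene that the authors made with Salmon 0.11.27 on hg38, per the submitters' processing notes, and 49.4% of its nonzero values are not whole. Which annotation was counted, and whether strand or molecular identifiers were used, is not stated by those notes or the labels. Estimated counts were rounded, and 57845 of 57964 gene identifiers matched GENCODE 29. Positions of genes come from that annotation.

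Tests used edgeR 4.0.16 in R 4.3.3 (quasi-likelihood, robust, TMM, filterByExpr), with 1 fit of the 42 libraries of a line, or of all 84 for comparisons of lines, and Benjamini-Hochberg adjustment over all genes tested at 0.05. The standard error is the absolute log2 difference divided by the square root of F. CYP1A1 in NCI-H647 was compared by an exact permutation test with a pseudocount of 1 CPM (scipy 1.17.1). DESeq2 1.42.0, other size factors, no filter, a replicate block, libraries of 1 time libraries on either side of a gap in depth at 2200000 counts and leaving out libraries were alternatives, and leaving out those numbered 1 in NCI-H647 at 6 h was added after the data were seen. The code was tested on simulated data. Intervals and floors on counts cover counting error only.

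The members and gene lists were chosen with earlier results of these data known. Named genes are the 5 members, TIPARP, CYP1A2 and CYP1B1-AS1 as relatives or neighbours, PDCD6 and RMDN2 as overlapping genes chosen after their values were seen, up to 4 called genes of each list by smallest adjusted p in any pooled comparison, and the 3 genes with the highest value of the lower of their Pearson r in the lines.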

Additional observations from a re-analysis of the deposited data

How the results depend on the processing

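No member's called difference changed direction under any alternative. A difference that missed the threshold in both fits was counted as unchanged whatever its sign. Leaving out 1 library, or 1 replicate number in comparisons of lines, kept 1727 results on their side of the threshold, moved 8 past it and 53 out of it, and the other alternatives kept 1089, moved 66 past it and 27 out of it. DESeq2 gave no adjusted p for 13 results. Above the depth gap at 24 h and below it at 6 h each NCI-H1373 group holds 1 library, assumed to vary like the other groups. Where a call changed, the cause was not tested, except that subsets of libraries hold fewer samples.

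Log2 differences follow, with calls in edgeR unless DESeq2 is named. The pooled calls at 6 h in NCI-H1373 were lost with libraries above the depth gap alone (CYP1B1 4.22, AHRR 2.03, CYP1A1 4.84), with those below it alone for AHRR (1.92) and CYP1A1 (6.13), and with libraries of 1 time alone (CYP1B1 4.26, AHRR 2.03, CYP1A1 4.90). At 24 h AHR was lost above the gap (0.76), below it (0.52) and with no filter on low counts (0.62), and CYP1B1 above the gap (1.07). AHRR at 24 h passed in DESeq2 (1.44) and with no filter (1.37). CYP1B1 in NCI-H647 passed with no filter at 6 h (1.16) and 24 h (1.17), and at 24 h with libraries of 1 time (1.14). With no filter these also passed: CYP1B1 between the compounds at 10 nM in NCI-H1373 at 6 h (-1.15), CYP1A1 (2.41) and CYP1B1 (1.09) for RBN012337 100 nM minus 3 nM in NCI-H1373 at 24 h, and 24 h minus 6 h in NCI-H1373 for CYP1A1 (-4.57) and CYP1B1 (-2.35). The line difference of CYP1B1 at 6 h passed in DESeq2 (3.05), with no filter (3.09) and with the replicate block (3.26).

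Leaving out 1 library gave pooled ranges in NCI-H1373 of 4.13 to 4.35 for CYP1B1, 1.90 to 2.28 for AHRR and 4.5 to 5.48 for CYP1A1 at 6 h, and 0.52 to 0.77 for AHR and 1.63 to 2.31 for CYP1B1 at 24 h. It gave 0.39 to 0.77 for AHR in NCI-H647 at 24 h, -2.59 to -1.93 for CYP1B1 at 24 h minus 6 h in NCI-H1373, and -2.30 to -1.68 for CYP1B1 between DMSO lines at 24 h.

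Counts of all genes called moved by over 1.5 times. In NCI-H1373 at 6 h, 149 became 232 in DESeq2, 516 with no filter, 27 with libraries of 1 time, and 0 above and 1 below the depth gap. At 24 h, 1558 became 642 above and 3 below it. In NCI-H647 at 6 h, 2 became 41 in DESeq2, 221 with no filter, 0 with libraries of 1 time and 192 without those numbered 1, and at 24 h 736 became 1163 with no filter. For 24 h minus 6 h, 68 in NCI-H1373 became 204 in DESeq2, 266 with no filter, 158 above and 0 below the depth gap, and 0 in NCI-H647 became 11 in DESeq2, 2 with RLE size factors and 161 with no filter. For the line difference, 0 at 6 h became 15 in DESeq2 and 52 with no filter, and 76 at 24 h became 212 with no filter and 7, 17 and 8 without replicate 1, 2 or 3. Leaving out 1 DMSO library (replicate 1, 2 or 3) gave 226, 1 and 268 genes in NCI-H1373 at 6 h, 213, 872 and 2045 at 24 h, 406, 0 and 1 in NCI-H647 at 6 h, and 1669, 122 and 210 at 24 h. Some treated libraries moved counts too. NCI-H1373 at 6 h gave 459 without replicate 2 of RBN-2397 at 30 nM and 93 without replicate 1 at 10 nM. NCI-H647 at 24 h gave 1265 without replicate 2 of RBN012337 at 100 nM. The DMSO difference between lines fell from 5397 to 3180 genes without replicate 1 at 6 h, and from 4693 to 2940 at 24 h.

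The main fits held no term for replicate number. Of 18 same-numbered pairs of a DMSO and a treated library, 15, 13, 8 and 7 had a correlation of deviations over 0.1. The order is NCI-H1373 at 6 h and 24 h, then NCI-H647 at 6 h and 24 h. Still, 21, 21, 21 and 20 of 21 libraries correlated best with their own number, so the spread in the main fits includes what same-numbered libraries share. With the replicate block the pooled counts were 599, 2308, 7 and 1215 in that order, 385 and 11 for 24 h minus 6 h in NCI-H1373 and NCI-H647, and 13 and 178 for the line difference at 6 h and 24 h. Of the members' results, the block kept 202 on their side of the threshold and moved 7 past it. Low counts limit CYP1A1 and AHRR, since single DMSO libraries held 0 counts of each, the deepest library included for CYP1A1.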
